A study of Schizosaccharomyces pombe with 8 samples.

Results

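Mean RNA levels were compared between 2 pairs of fission yeast (Schizosaccharomyces pombe) groups. The epe1KO pair holds the groups labelled epe1KO, a knockout of epe1, and epe1KO_tfs1DN, the same knockout with tfs1DN, a TFIIS (elongation factor) variant that acts in a dominant-negative way. The study expressed tfs1DN from the nmt1 promoter, which thiamine represses, at the leu1 locus, and worked with these strains in the presence of thiamine. It took the RNA of this group from 1 isolate, and names a vector control for epe1KO. The WT pair holds the groups labelled WT, the wild type, and seb1-1, a mutant allele of the RNA-binding protein gene seb1. Each group has 2 libraries of poly(A)-selected RNA from cultures in a rich medium with glucose. The authors deposited 1 mean per gene and pair, taken over the pair's 4 libraries, so each value below is an average of 2 groups and no value per library or group was used. The comparison therefore has no replicates and no test, and the error of each value and the depth of each library are unknown. The 2 tables were normalized separately, and the deletion of epe1, the other alleles of the strains, the growth and the sequencing batch cannot be told apart. The remaining genotype of the strains, such as mating type and nutritional markers, was not found in the labels or the study's methods, and the study's list of strains was not used here.

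Levels were put on 1 scale by dividing each mean by the sum of its table, and are given in ppm, that is parts per 1000000 of that sum. The sums were 15644260 normalized counts in the epe1KO pair, against 22456953 in the WT pair. Of 5129 listed genes, 4963 had a mean of at least 20 normalized counts in either pair and were kept. The other 166 lay below this minimum, and 45 of them were listed at 0 in both. At the edge of this minimum, mug103 was kept with 21.2 normalized counts in the epe1KO pair, against 4.49 in the WT pair, and SPAC869.03c was left out with 19.4 and 7.67. The difference of a gene is log2((epe1KO pair + 1)/(WT pair + 1)) in ppm, which understates the change of genes near 1 ppm. The folds printed for nmt1, gld1, mei2 and srx1 are instead ratios of ppm without the added 1. Since a pair mean averages 2 groups of equal size, a pair mean more than 2-fold above the other places at least 1 group of the higher pair above both groups of the lower pair, on this scale.

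Epe1 is a JmjC domain protein that counteracts the spread of heterochromatin, the compact chromatin marked by methylated histone H3 lysine 9 that silences centromeres, telomeres and the mating-type locus in this yeast. TFIIS restarts backtracked RNA polymerase II (RNAPII), and Seb1 acts with RNAPII in 3′ end processing and termination. In fission yeast, RNA levels of whole sets of genes follow the carbon source, the supply of phosphate, metals and thiamine, stress, and mating. The groups below follow these sets.

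The targeted genes were read first as a check of the labels. Transcripts of epe1 stood at 45.1 ppm in the epe1KO pair, against 31.7 ppm in the WT pair, a log2 difference of 0.50. The median difference over kept genes was 0.62, and with this median taken off, epe1 stood at -0.12. The mean count of epe1 was thus not lost in the libraries labelled epe1KO. How much of epe1 was removed was not found in the labels or methods. An annotated transcript on the opposite strand overlaps epe1, and the strand setting of the counting is not stated, so the reads behind this value cannot be assigned further. The 10 neighbours of epe1 differed by -0.94 to 1.01, and 1 of them, jmj4, was 2-fold higher, beside 27.1% of kept genes. The directions below are those of the pair labelled epe1KO.

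The gene with the lowest difference was ura4, which encodes orotidine 5'-phosphate decarboxylase of uracil synthesis and is a common selection marker. Its mean was 0.51 ppm in the epe1KO pair and 90.1 ppm in the WT pair, a log2 difference of -5.91. The other 7 measured genes of uracil synthesis and uptake did not share this direction at 2-fold, and ura5, orotate phosphoribosyltransferase of the same pathway, stood at 209 ppm in the epe1KO pair and 79.2 ppm in the WT pair. The gene next to ura4 on one side, new25, was also lower, at 3.52 ppm against 10.4 ppm in the WT pair, whereas tam14 on the other side stood at 26.1 ppm in the epe1KO pair and 18.9 ppm in the WT pair. leu1, the locus of the tfs1DN construct and the gene of 3-isopropylmalate dehydrogenase, had 872 ppm in the epe1KO pair and 435 ppm in the WT pair, a log2 difference of 1.00. The mean of tfs1 was 158 ppm in the epe1KO pair and 95.7 ppm in the WT pair, a log2 difference of 0.72. That of seb1 was 194 ppm and 158 ppm in the same order, a difference of 0.29. With the median difference of 0.62 over kept genes taken off, leu1 stood at 0.39, tfs1 at 0.10 and seb1 at -0.33. Without the median taken off, the 10 neighbours of tfs1 had a median difference of 1.15, and 7 of them were 2-fold higher, beside 27.1% of kept genes. nmt1, a thiamine synthesis gene whose promoter drives the construct, was 27.5-fold higher, with 16.8 ppm in the epe1KO pair and 0.61 ppm in the WT pair. Its log2 difference, which includes the added 1 ppm, was 3.47. Reads of construct sequence taken from nmt1 cannot be told apart from reads of the native gene in these means.

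Most genes took a larger share of the sum in the epe1KO pair. The median difference over the 4963 kept genes was 0.62 on the log2 scale, or 1.53-fold, with quartiles at 0.16 and 1.04. By the rule as given, 1346 genes were at least 2-fold higher in the epe1KO pair (27.1% of kept genes) and 115 were at least 2-fold lower (2.32%). Relative to the median gene, that is after 0.62 was taken off each difference, 289 genes were 2-fold higher (5.82%) and 380 were 2-fold lower (7.66%). The split thus turned from mostly higher to mostly lower with the scaling. The most abundant transcripts took a smaller share. The 50 genes with the highest mean level took 24.8% of the sum in the epe1KO pair, against 36.8% in the WT pair, and 3 genes of glycolysis, tdh1, fba1 and eno101, took 5.44% in the epe1KO pair, against 10.8% in the WT pair.

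**Figure D1:**
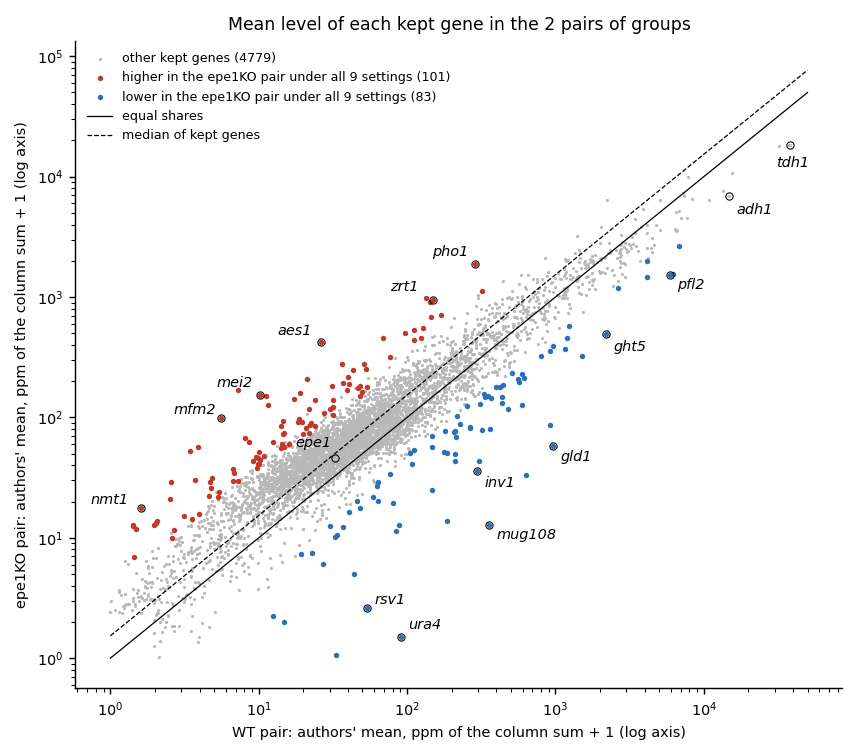
Mean level of each of the 4963 kept genes in the epe1KO pair (vertical axis) against the WT pair (horizontal axis), in ppm of the column sum plus 1 on log axes, with 1 point per gene. Most points lie above the line of equal shares, the dashed line marks the median difference of 0.62, and ura4, rpn501 and mug108 lie farthest below it.

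The difference also followed properties of the transcripts. Kept genes were divided into 10 bins of equal size. By transcript GC content, the median difference was 1.21 in the lowest bin and -0.06 in the highest. By transcript length, it was 0.87 in the shortest bin, 0.97 in the next and 0.24 in the longest. By mean level, it was 0.94 in the lowest and 0.12 in the highest. Across kept genes, which are not replicates, Spearman's rho with the difference was -0.53 for GC content, -0.36 for length and -0.36 for mean level. The part of these properties in the results was not tested. For this reason each difference was also centred on a running median over genes of similar GC content, length or mean level. Centred on GC content, 212 genes were 2-fold higher (4.28%) and 211 were 2-fold lower (4.26%).

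**Figure D2:**
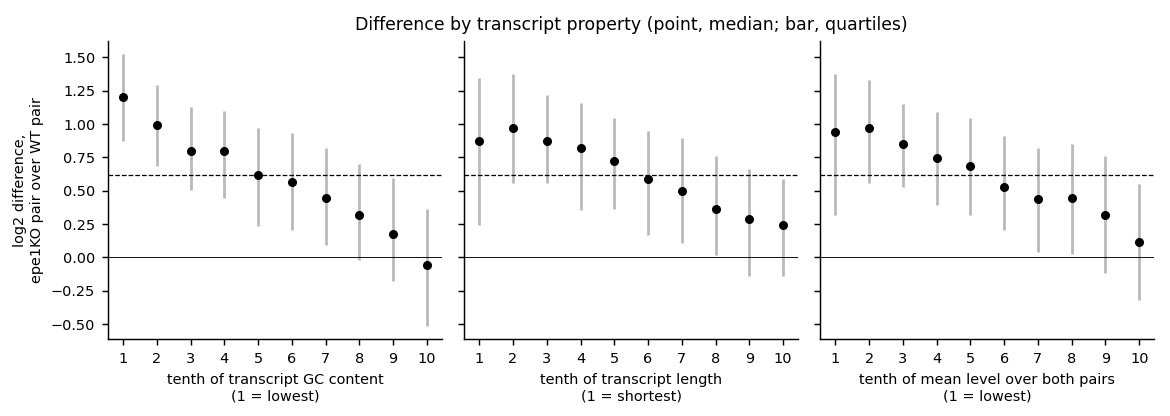
Median log2 difference, epe1KO pair over WT pair, in 10 bins of the kept genes by transcript GC content, transcript length and mean level (points), with quartiles (bars). The dashed line is the median of 0.62, and the medians run from 1.21 in the bin of lowest GC content to -0.06 in the highest.

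A set of genes was then taken that kept a difference of at least 2-fold under all 9 settings, which were the rule, 6 other scalings or centrings, and the pseudo-values 0.1 and 5 ppm. It held 101 genes higher in the epe1KO pair (2.04% of kept genes) and 83 genes lower in it (1.67%). Of the 83 lower genes, 6 were in the list of glucose-repressed genes and their regulators, and 4 were hexose transporters. Of the 101 higher genes, 5 were core stress genes, 5 ribosome assembly genes, 4 regulators of sexual differentiation, 3 M cell genes and 3 phosphate genes.

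**Figure D3:**
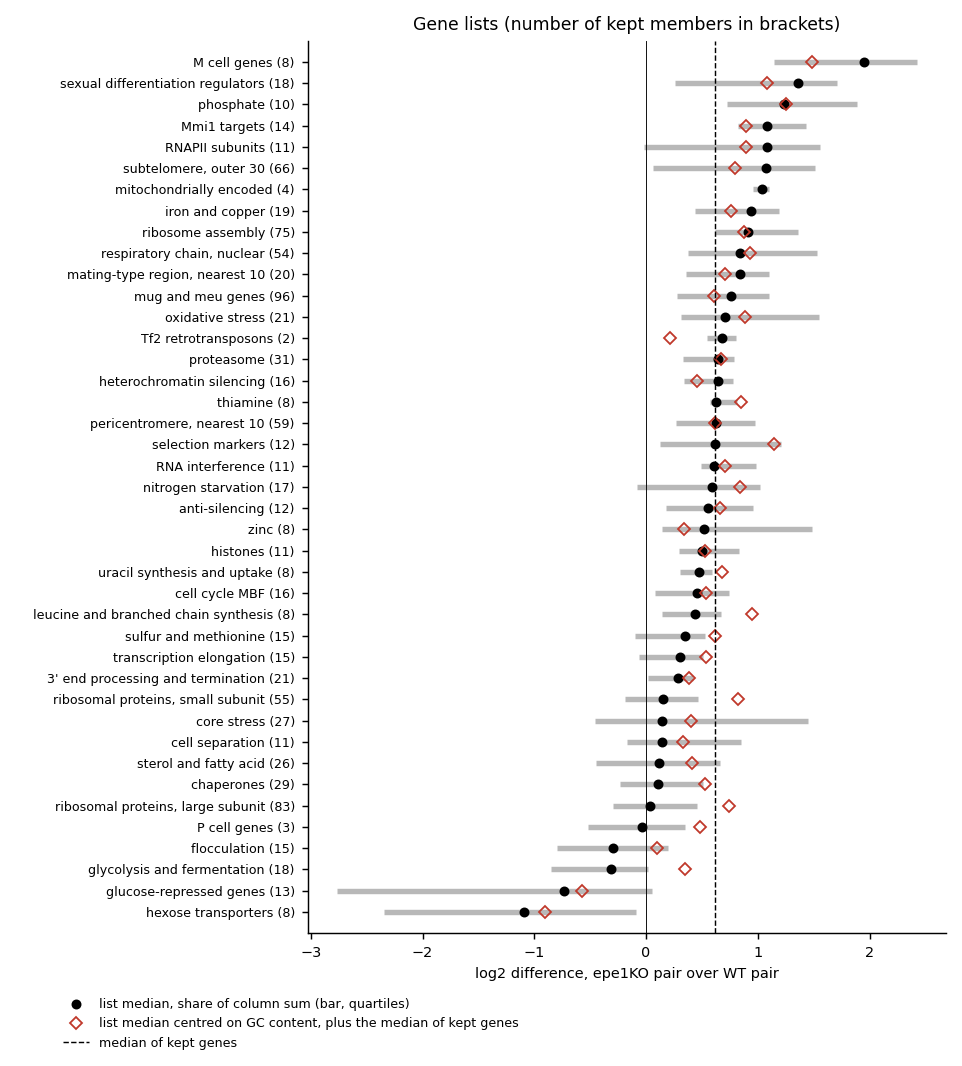
Median log2 difference, epe1KO pair over WT pair, of each gene list (filled circles) with quartiles (bars), and the same median centred on GC content and moved by the median of kept genes (open diamonds). M cell genes stand highest at 1.95 and hexose transporters lowest at -1.09, while the dashed line marks the median gene at 0.62.

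Genes of glucose uptake and of the use of other carbon sources were lower in the epe1KO pair. All 8 hexose transporter genes (ght1 to ght8) were kept. Of these, 5 were at least 2-fold lower under the rule, beside 2.32% of kept genes, and 4 under all 9 settings, beside 1.67%. The list's median was -1.09 under the rule, against 0.62 over kept genes, and -1.71 relative to the median gene. ght5, the main high-affinity glucose and fructose transporter, had 489 ppm in the epe1KO pair and 2199 ppm in the WT pair. ght1 had 12.7 ppm in the epe1KO pair and 185 ppm in the WT pair, a log2 difference of -3.77, the lowest of the family. ght6 stood at 1.01 ppm in the epe1KO pair and 13.7 ppm in the WT pair, and ght8 at 578 ppm and 1236 ppm in the same order. The family did not move as a block. ght2 had 187 ppm in the epe1KO pair and 79.5 ppm in the WT pair, higher by 1.22 under the rule and by 0.61 relative to the median gene.

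The enzymes that bring glycerol and dihydroxyacetone into glycolysis showed the same direction. gld1, glycerol dehydrogenase, was 17.0-fold lower, with 56.7 ppm in the epe1KO pair and 962 ppm in the WT pair. gut2, the glycerol-3-phosphate dehydrogenase, stood at 42.4 ppm in the epe1KO pair and 306 ppm in the WT pair, and dak2, dihydroxyacetone kinase, at 11.9 ppm and 86.7 ppm in the same order. Among secreted sugar-splitting enzymes, invertase (inv1) had 35.1 ppm in the epe1KO pair and 294 ppm in the WT pair, and the maltase agl1 had 28.1 ppm and 62.5 ppm in that order. scr1, the zinc finger repressor of glucose-repressed genes, was itself lower, at 197 ppm in the epe1KO pair and 568 ppm in the WT pair. In all, 6 of the 13 kept genes of this list were 2-fold lower under all 9 settings, beside 1.67% of kept genes. None was higher. Not every gene of the list took part. mae1, the malate permease, stood at 727 ppm in the epe1KO pair and 353 ppm in the WT pair. The list's median was -0.73 under the rule and -1.35 relative to the median gene.

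Transcripts of glycolysis and fermentation took 10.7% of the sum in the epe1KO pair, against 18.6% in the WT pair. adh1, alcohol dehydrogenase, had 6913 ppm in the epe1KO pair and 14795 ppm in the WT pair. tdh1, glyceraldehyde-3-phosphate dehydrogenase, had 18340 ppm in the epe1KO pair and 38103 ppm in the WT pair, and fba1, the aldolase, had 18310 ppm and 37668 ppm in the same order. Relative to the median gene, 9 of 18 kept members were at least 2-fold lower, beside 7.66% of kept genes. Centred on GC content, the list's median was -0.27 and none of the 18 was 2-fold lower, beside a median GC content of 46.7% in the list. A single member, adh4, a zinc-repressed alcohol dehydrogenase, was higher under all 9 settings.

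**Figure D4:**
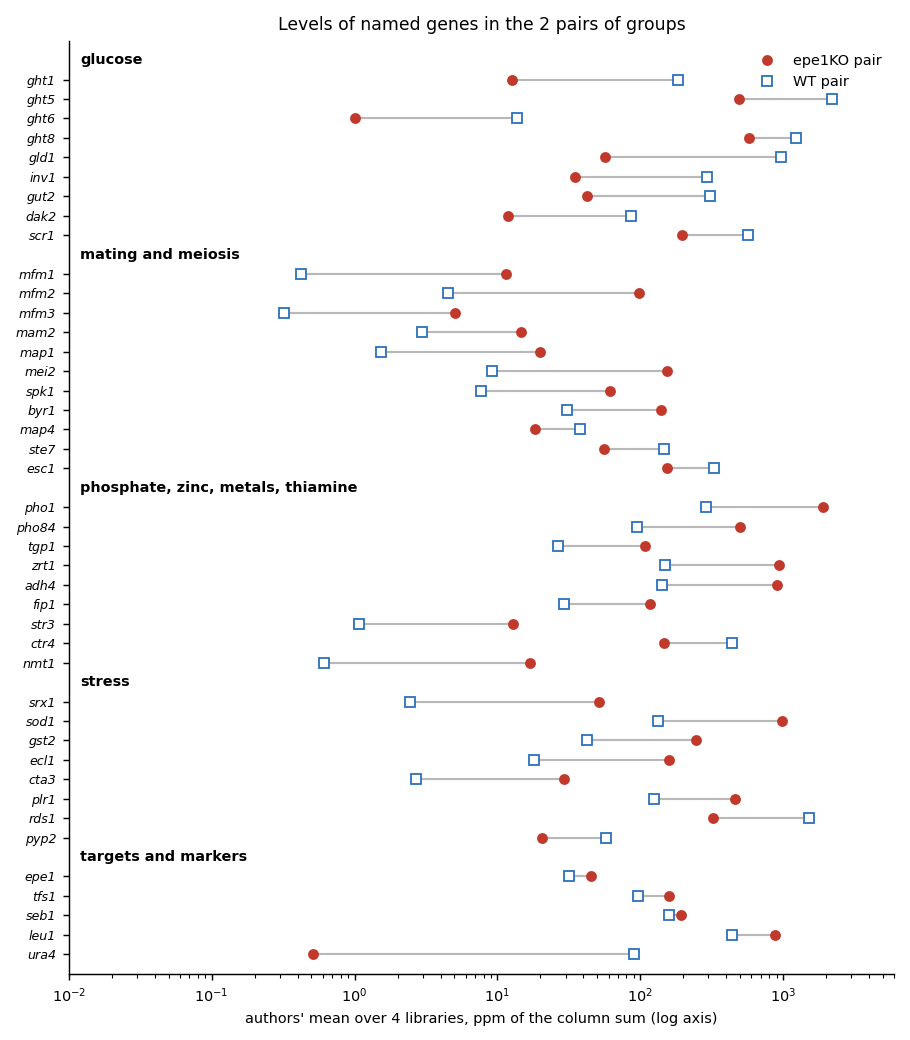
The authors' mean over 4 libraries of each named gene, with filled circles for the epe1KO pair and open squares for the WT pair, in ppm of the column sum on a log axis, grouped by role. Glucose genes such as ght1 (12.7 against 185 ppm in the WT pair) have the filled circle to the left, and M-factor, phosphate and zinc genes have it to the right.

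M cell genes and several regulators of mating and meiosis were higher in the epe1KO pair. Relative to the median gene, 7 of 8 M cell genes, 11 of 18 regulators and 1 of 3 P cell genes lay above it. Fission yeast has M and P cells, which make M-factor and P-factor and carry the receptor for the other factor. The 3 M-factor genes were at the top of the M cell list. mfm2 had 98.3 ppm in the epe1KO pair and 4.55 ppm in the WT pair, mfm1 had 11.5 ppm and 0.42 ppm, and mfm3 had 5.03 ppm and 0.32 ppm, with the epe1KO pair first. mam2, the P-factor receptor of M cells, stood at 14.7 ppm in the epe1KO pair and 2.95 ppm in the WT pair. The 8 kept M cell genes had a median of 1.95 under the rule, 1.34 relative to the median gene and 0.87 centred on GC content. Of these, 3 were higher under all 9 settings, beside 2.04% of kept genes. mfm1 and mfm3 met the minimum of 20 normalized counts in the epe1KO pair alone, so the filter adds to this median. With the minimum required in both pairs, the list's median moved by less than 1.5-fold. mam3, the M cell agglutinin, was the exception, with 26.6 ppm in the epe1KO pair and 39.9 ppm in the WT pair. The M mating-type gene mat1-Mc was below the minimum, at 0.40 ppm in the epe1KO pair and 0.02 ppm in the WT pair.

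The 3 measured P cell genes had a median of -0.04. map2, P-factor itself, had 3.48 ppm in the epe1KO pair and 3.60 ppm in the WT pair. map3, the M-factor receptor, had 14.1 ppm in the epe1KO pair and 8.13 ppm in the WT pair, which is 0.11 above the median gene. map4, the P cell agglutinin, had 18.2 ppm in the epe1KO pair and 37.6 ppm in the WT pair. The M and P lists thus lay on different sides of the median gene, in 8 and 3 genes.

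Among the regulators of sexual differentiation, mei2, the RNA-binding protein that starts meiosis, was 16.7-fold higher, with 154 ppm in the epe1KO pair and 9.23 ppm in the WT pair. spk1, the MAP kinase of the pheromone pathway, had 61.5 ppm in the epe1KO pair and 7.63 ppm in the WT pair, and byr1, its MAP kinase kinase, had 140 ppm and 30.7 ppm in that order. map1, a MADS-box activator of P cell genes, had 19.9 ppm in the epe1KO pair and 1.54 ppm in the WT pair. ste11, the HMG-box factor that activates mei2, had 142 ppm in the epe1KO pair and 57.1 ppm in the WT pair, a difference of 1.30 under the rule and 0.23 centred on GC content. ste7, an arrestin-like adaptor, and esc1, a transcription factor, were lower, at 55.6 ppm against 146 ppm in the WT pair and at 155 ppm against 329 ppm in the WT pair. Of 18 kept regulators, 4 were higher and 2 lower under all 9 settings, beside 2.04% and 1.67% of kept genes. Mmi1 targets, meiotic transcripts that growing cells remove, had a median of 1.08 under the rule and of 0.47 relative to the median gene. The 96 kept mug and meu genes, named for higher levels in meiosis, had a median of 0.76 under the rule and -0.01 centred on GC content. Of these, 1 was higher and 3 were lower under all 9 settings, beside 2.04% and 1.67% of kept genes. Of the 14 Mmi1 targets, rec8, the meiotic cohesin subunit, was higher under all 9 settings, with 9.03 ppm in the epe1KO pair and 1.60 ppm in the WT pair.

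Nutrient uptake genes split by nutrient. In the phosphate list, pho1, the secreted acid phosphatase, had 1896 ppm in the epe1KO pair and 287 ppm in the WT pair. The phosphate transporter pho84 had 497 ppm in the epe1KO pair and 95.1 ppm in the WT pair, and the glycerophosphodiester transporter tgp1 had 107 ppm and 26.4 ppm in that order. These 3 were higher under all 9 settings, beside 2.04% of kept genes. The median of the 10 kept phosphate genes was 1.23 under the rule and 0.61 relative to the median gene. pho7, the transcription factor that activates pho1, pho84 and tgp1, stood at 51.1 ppm in the epe1KO pair and 48.3 ppm in the WT pair. pho84 shares 1870 bases at 100% identity with the annotated prt2, so reads of these copies may be split between the names. Their sum was 547 ppm in the epe1KO pair and 109 ppm in the WT pair.

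Zinc genes differed among themselves. zrt1, the high-affinity zinc transporter, had 938 ppm in the epe1KO pair and 150 ppm in the WT pair, and adh4 had 900 ppm and 141 ppm in that order. Both were above 2-fold under all 9 settings, whereas zym1, the zinc metallothionein, had 26.7 ppm in the epe1KO pair and 39.7 ppm in the WT pair. The median of the 8 kept genes was 0.51, and 3 of them were 2-fold higher under the rule, beside 27.1% of kept genes.

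Iron and copper genes did not share 1 direction. fip1, the iron permease of the plasma membrane, had 116 ppm in the epe1KO pair and 29.1 ppm in the WT pair, and the siderophore transporter str3 had 12.8 ppm and 1.07 ppm in that order. fio1, the ferroxidase that works with fip1, had 101 ppm in the epe1KO pair and 46.0 ppm in the WT pair. The copper transporter subunit ctr4 was lower, with 148 ppm in the epe1KO pair and 435 ppm in the WT pair. Of 19 genes, 2 were higher and 1 lower under all 9 settings, beside 2.04% and 1.67% of kept genes.

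In the thiamine list, nmt1 stood alone. The other 7 kept members lay between 0.37 and 0.93. thi2, the enzyme that makes the thiazole moiety of thiamine, had 63.4 ppm in the epe1KO pair and 36.6 ppm in the WT pair.

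Stress genes moved apart rather than together. srx1, sulfiredoxin, was 20.9-fold higher, with 51.3 ppm in the epe1KO pair and 2.45 ppm in the WT pair. sod1, the copper-zinc superoxide dismutase, had 980 ppm in the epe1KO pair and 133 ppm in the WT pair, and gst2, a glutathione S-transferase, had 246 ppm and 42.2 ppm in that order. These 3 of 21 oxidative stress genes were higher under all 9 settings, beside 2.04% of kept genes, and none was lower. The catalase ctt1 had 189 ppm in the epe1KO pair and 275 ppm in the WT pair. Of the 27 core stress genes, 5 were higher under all 9 settings, beside 2.04% of kept genes. Among them were the calcium-transporting ATPase cta3 (29.3 ppm in the epe1KO pair and 2.69 ppm in the WT pair) and ecl1 (158 ppm and 18.0 ppm in that order). The study places cta3 within the ectopic heterochromatin of the isolate sequenced for epe1KO_tfs1DN, and reports a significant decrease of its RNA there. The levels of the 2 groups behind the mean of cta3 cannot be told apart here. The higher pair mean therefore does not show a higher level of cta3 in that isolate. In the other direction, rds1 and pyp2, a phosphatase of the stress MAP kinase, were lower under all 9 settings. rds1 had 325 ppm in the epe1KO pair and 1509 ppm in the WT pair, and pyp2 had 20.7 ppm and 57.5 ppm in that order. The list's median was 0.15 under the rule and -0.47 relative to the median gene. ddr48, outside these lists, was the eighth lowest gene, with 85.1 ppm in the epe1KO pair and 921 ppm in the WT pair.

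Among flocculation genes, which make cells stick to each other, the cell surface protein gene pfl2 had 1531 ppm in the epe1KO pair and 5887 ppm in the WT pair, and pfl8 had 46.4 ppm in the epe1KO pair and 9.87 ppm in the WT pair. These were the 2 of 15 kept members beyond 2-fold under all 9 settings, beside 2.04% of kept genes higher and 1.67% lower. The list's median was -0.29 under the rule and -0.91 relative to the median gene, and 14 of 15 members lay below the median gene.

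The translation machinery showed how far a direction can rest on scaling. Ribosomal protein genes of the small subunit (55 genes) and large subunit (83 genes) had medians of 0.15 and 0.04 under the rule. Relative to the median gene these were -0.47 and -0.58, and centred on GC content they were 0.21 and 0.12, so the sign of the difference from other genes flipped. Their median GC content was 44.1% and 44.5%. No ribosomal protein gene was beyond 2-fold under all 9 settings. Ribosome assembly factors stayed above the median gene in each scaling, with medians of 0.91 under the rule, 0.30 relative to the median gene and 0.26 centred on GC content. Of these 75 genes, 34 were 2-fold higher and none 2-fold lower under the rule, beside 27.1% of kept genes that were higher. nop52, a nucleolar protein, had 73.8 ppm in the epe1KO pair and 13.8 ppm in the WT pair, and nop16 had 90.6 ppm and 17.5 ppm in that order. Nuclear genes of the respiratory chain had a median of 0.84 under the rule, 0.22 relative to the median gene and 0.31 centred on GC content. Of these 54 genes, 23 were 2-fold higher under the rule, beside 27.1% of kept genes. Centred on GC content, 4 were 2-fold higher, beside 4.28%, and 2 were higher under all 9 settings, beside 2.04%. The ATP synthase subunit atp18 was highest, with 66.0 ppm in the epe1KO pair and 7.12 ppm in the WT pair.

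Heterochromatin and RNA interference genes had medians close to the median gene, whereas most factors of elongation and 3′ end processing lay below it without centring. The 16 kept heterochromatin genes had a median of 0.64 under the rule and 0.02 relative to the median gene. clr4, the H3K9 methyltransferase, had 28.4 ppm in the epe1KO pair and 27.5 ppm in the WT pair, and swi6, the HP1 protein, had 129 ppm and 124 ppm in that order. chp2, the second HP1 protein, was the farthest apart, with 18.9 ppm in the epe1KO pair and 4.73 ppm in the WT pair, a difference of 1.80 under the rule and 0.83 centred on GC content. The 11 RNA interference genes ranged from 0.19 to 1.26, with ago1 at 45.4 ppm in the epe1KO pair and 35.2 ppm in the WT pair. The 15 elongation factors had a median of 0.31 under the rule and -0.31 relative to the median gene, and 13 of them lay below it. The 21 factors of 3′ end processing had medians of 0.29 and -0.33 on the same scales, and 19 of them lay below the median gene. Centred on GC content, the median was -0.08 for elongation factors and -0.24 for factors of 3′ end processing. spt5, a subunit of the elongation factor DSIF, had 143 ppm in the epe1KO pair and 243 ppm in the WT pair. None of the genes in these 4 lists was beyond 2-fold under all 9 settings. Outside the lists, clr5, a silencing factor by annotation, was lower under all 9 settings. It had 146 ppm in the epe1KO pair and 335 ppm in the WT pair.

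The 11 RNAPII subunit genes spread widely. rpb1, the largest subunit, had 269 ppm in the epe1KO pair and 486 ppm in the WT pair, a difference of -0.85. rpb8, a small subunit, had 105 ppm in the epe1KO pair and 20.3 ppm in the WT pair, a difference of 2.32. The transcript of rpb8 has 968 bases and a GC content of 31.9%, and centred on GC content its difference was 0.98. No RNAPII subunit was beyond 2-fold under all 9 settings.

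Other genes far from the median gene were not described above. mug108, named for a meiotic upregulated gene and 1 of the 96 kept mug and meu genes, had 11.8 ppm in the epe1KO pair and 356 ppm in the WT pair. rsv1, a DNA-binding transcription repressor by its annotation, had 1.62 ppm in the epe1KO pair and 53.0 ppm in the WT pair. lsd90 had 32.1 ppm in the epe1KO pair and 629 ppm in the WT pair. At the other end, SPBC1271.08c, an uncharacterized protein, had the highest difference of all kept genes, 4.56, with 169 ppm in the epe1KO pair and 6.21 ppm in the WT pair. aes1, annotated as a member of a phenazine biosynthesis family and located in the outer 30 genes of a chromosome end, had 424 ppm in the epe1KO pair and 25.2 ppm in the WT pair. SPCC70.08c, a methyltransferase by annotation, had 127 ppm in the epe1KO pair and 10.6 ppm in the WT pair.

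One of the lowest genes has a near-identical copy. rpn501, a proteasome subunit gene, had 0.056 ppm in the epe1KO pair and 32.1 ppm in the WT pair. Its copy rpn502, 99.9% identical over 1462 bases, had 87.5 ppm in the epe1KO pair and 53.2 ppm in the WT pair. The sum of both copies was 87.5 ppm in the epe1KO pair and 85.3 ppm in the WT pair, a difference of 0.04. The values of the separate copies are therefore uncertain. The other 30 kept proteasome genes lay between -0.59 and 1.64.

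Neighbouring genes were read in the gene order of the reference annotation. Relative to the median gene, 26 runs of at least 3 adjacent kept genes were each 1.5-fold or more higher and 48 were lower, with 88 and 170 genes in them. Under the rule, without the shift of 0.62, there were 346 such runs higher and 9 lower. The median over windows of 11 adjacent genes lay mostly within -0.43 and 0.42 on chromosome I, the 5th and 95th percentiles. On chromosome II these were -0.40 and 0.43, and on chromosome III -0.65 and 0.28.

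The highest window of the genome, with a median of 1.66 relative to the median gene and 1.58 centred on GC content, was at the right end of chromosome II. It held the adjacent run SPBC8E4.03, ecl3, prt2, pho84 and pho1 and the run nrg1, say1, SPBPB2B2.05, SPBPB2B2.06c and SPBPB2B2.08, with fub2 between them. nrg1, an amino acid permease by annotation, had 28.3 ppm in the epe1KO pair and 1.56 ppm in the WT pair. SPBPB2B2.06c, a phosphoprotein phosphatase by annotation, had 55.5 ppm in the epe1KO pair and 2.91 ppm in the WT pair. Near the left end of the same chromosome, fex2, eno102, SPBPB21E7.11, cmt2 and aes1 formed a run whose lowest difference was 0.67 relative to the median gene. Away from the ends, tgp1 was followed by SPBC1271.08c and SPBC1271.07c, which were among the 7 highest of all kept genes. SPBC1271.07c, an N-acetyltransferase by annotation, had 150 ppm in the epe1KO pair and 10.1 ppm in the WT pair.

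**Figure D5:**
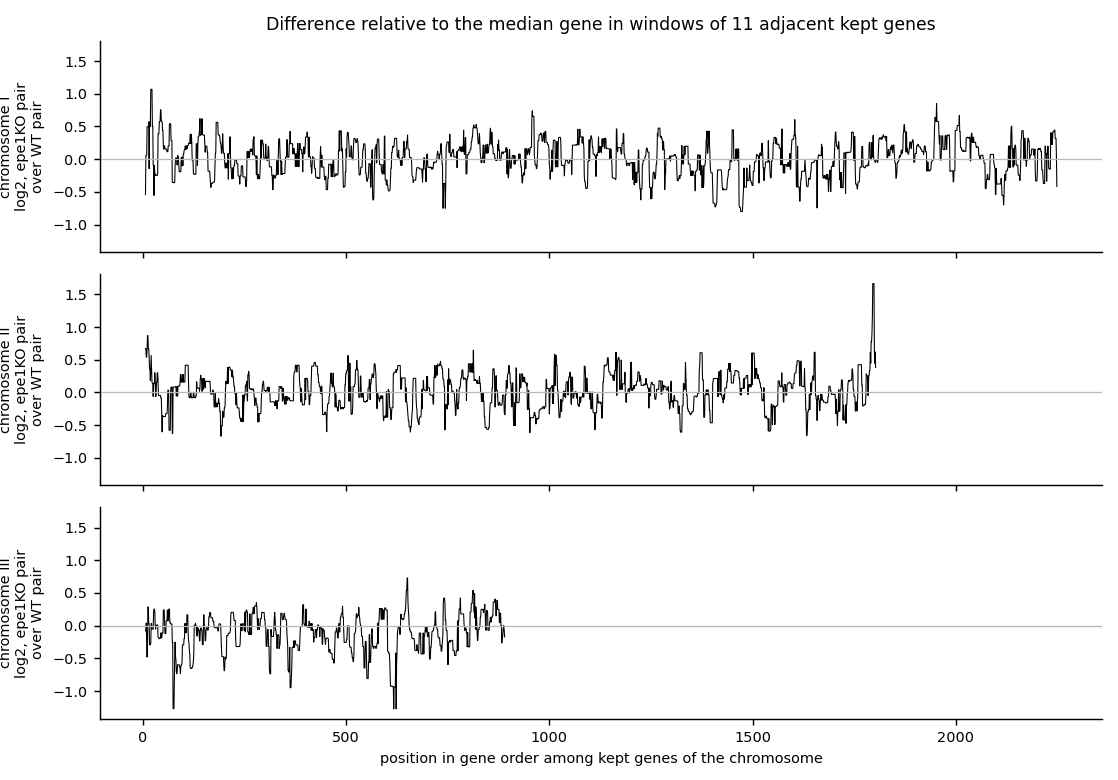
Median log2 difference, epe1KO pair over WT pair, relative to the median gene, in windows of 11 adjacent kept genes along the gene order of chromosomes I, II and III. The highest window, 1.66, stands at the right end of chromosome II, and the lowest, -1.27, lies on chromosome III.

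The outermost 30 listed genes of each arm of chromosomes I and II, where Epe1 and heterochromatin are known to act, were read arm by arm. Of these 120 genes, 66 were kept, with a median of 1.07 under the rule and 0.46 relative to the median gene, and 0.18 centred on GC content. Some were kept through the epe1KO pair alone, such as SPBPB2B2.08, with 10.8 ppm in the epe1KO pair and 0.48 ppm in the WT pair. Genes kept in this way are higher by the filter, which adds to the median and to the counts of higher genes. With the minimum required in both pairs, the list's median moved by less than 1.5-fold. On chromosome II, the left end had a median of 0.54 relative to the median gene (15 kept genes) and the right end one of 0.64 (20 kept genes). On chromosome I, the left and right ends had medians of -0.04 (18 kept genes) and 0.03 (13 kept genes). Relative to the median gene, 4 genes were 2-fold higher and 5 lower at the left end of chromosome I. At its right end, none was higher and 5 were lower. On chromosome II, 2 were higher and 0 lower at the left end, and 7 higher and 1 lower at the right end. Over all kept genes, 5.82% were higher and 7.66% lower on this scale. In all, 9 of the 66 were higher and 2 lower under all 9 settings, beside 2.04% and 1.67% of kept genes, and 15 of the 66 have a near-identical copy elsewhere. The 59 genes nearest the centromeres had a median of 0.01 relative to the median gene, and the 20 genes around the silent mating-type cassettes one of 0.22; none of either group was beyond 2-fold under all 9 settings.

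Runs of genes lower relative to the median gene were spread over the chromosomes. On chromosome III, SPCC417.16, SPCC191.01, acs1, SPCC191.03c and SPCC191.05c formed a run in the lowest window of the genome, with a median of -1.27 relative to the median gene and -0.64 centred on GC content. acs1, acetyl-CoA ligase, had 226 ppm in the epe1KO pair and 593 ppm in the WT pair. The hexose transporters ght6 and ght5 flank SPCC1235.17 and SPCC1235.18 in a run of 4 on the same chromosome. Around mug108 on chromosome I, SPAC29A4.22 and rga3 were lower as well, with 1.23 ppm in the epe1KO pair and 11.5 ppm in the WT pair for SPAC29A4.22. On chromosome I, urg2, urg3, urg1, toe1 and uck2 were adjacent and lower relative to the median gene. Of these, urg1, which is induced by uracil, had 352 ppm in the epe1KO pair and 915 ppm in the WT pair. On chromosome II, fbp1, wwm3, wwm2, ntp1 and atg38 formed a run that begins with fbp1, the fructose-1,6-bisphosphatase of gluconeogenesis, at 10.9 ppm in the epe1KO pair and 18.8 ppm in the WT pair. Neither the run of urg genes nor that of fbp1 was among the 9 lower runs under the rule.

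Promoters were searched for short motifs of known regulators, on both strands of the 300 bases around each annotated start in the reference genome. The Atf1 site TGACGT, bound by the stress factor Atf1 with Pcr1, was in 12.9% of the promoters of the 380 genes 2-fold lower relative to the median gene and in 4.84% of those of the 289 higher genes, against 5.91% of kept genes. It was in 12 of the 56 promoters of genes at least 4-fold lower. CTTTGTT, the core of the TR box bound by Ste11, was in 14.9% of the higher genes and 11.6% of the lower genes, against 10.3% of kept genes. It was in 7 of the 8 kept M cell genes and in 9 of the 18 regulators of sexual differentiation. CAGTCAC, the core of the HomolD box, was in 50 of 55 small subunit and 76 of 83 large subunit ribosomal protein genes. It was in 8.95% of the lower genes, against 4.82% of kept genes. The lower genes include 11 small subunit and 13 large subunit ribosomal protein genes, and centred on GC content none of these lists was 2-fold lower in any member. ACGCGT, the MBF site, was in 2.77% of the higher genes, against 3.27% of kept genes, and GTAAACA, the core of the FLEX element, in 13.8%, against 16.4% of kept genes. GATAA, the core of the GATA site, was in 60.9% of the higher genes, against 59.4% of kept genes, and AACCCT, the histone box, in 26 of the 289 higher genes, against 9.76% of kept genes. These matches describe letters in a window and show no binding.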

How the data were processed

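The authors sequenced poly(A)-selected RNA from 8 directional libraries, aligned the reads with TopHat to ASM294v2 (per the labels) and ran DESeq2 on each pair of groups; neither program versions nor the counting tool and its strand setting were found in the labels or methods. In each of the 2 deposited tables the value used is a signal, the authors' mean of size-factor-scaled counts over 4 libraries. The other deposited columns, which were not used, hold the authors' log2 fold change, its standard error, the Wald statistic and p-values within each pair.

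Means were divided by their column sum and multiplied to ppm, genes with a mean of at least 20 in either table were kept, and log2 differences were taken with a pseudo-value of 1 ppm. The calculation was checked on simulated data. Of the listed IDs, 5112 were matched to RefSeq annotation of ASM294v3, which differs from the files' build, so it served for symbols, gene order, transcript length and GC content (4957 kept genes), near-identical copies (BLAST 2.17.0, at least 95% identity over 50% of the length) and promoters (250 bases before to 50 after the start); 17 IDs, 11 of them mitochondrial, were not matched. For 4485 kept genes, the opposite strand carries an annotated transcript that overlaps them. Named genes are the 20 highest and 20 lowest, up to 5 members of each list with the largest difference, the targeted genes and the genes of described runs; further list members and neighbours were named after their values were seen. The comparison, lists and motifs were chosen with earlier results of these data known, and 4 symbols were taken off the lists because the annotation gives them to unrelated genes. Python 3.11.15, numpy 2.4.6 and pandas 2.3.3 were used. Alternatives were other scalings, pseudo-values and filters, and 3 more chosen after the data were seen. Any SD, interval or floor would need values per library, which were not used here.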

Additional observations from a re-analysis of the deposited data

How the results depend on the processing

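The counts of genes beyond 2-fold depended on the scaling. Higher and lower genes numbered 1346 and 115 under the rule. With scaling by the median difference, they numbered 289 and 380, which are the counts relative to the median gene given above. They numbered 824 and 182 with column sums without the 50 highest genes, and 218 and 305 when centred on mean level. With settings added after the data were seen, they numbered 212 and 211 when centred on GC content and 218 and 342 when centred on transcript length. Leaving out ribosomal protein and mitochondrial genes from the sum, the pseudo-values 0.1 and 5, the filters and leaving out near-identical copies kept both counts within 1.5 times those of the rule. Of the 125 named genes 2-fold higher under the rule, 123 kept their direction under every setting and 41 stayed beyond 2-fold; cms1 and fes1 turned to -0.044 and -0.017 when centred on GC content, and the cause was not tested. Of 33 named genes 2-fold lower, 33 kept their direction and 26 stayed beyond 2-fold. The deposited means hold no value per library, so no library could be left out. No paired analysis was possible because the tables hold 1 mean per pair of groups. Depth per library is unknown, and differences of genes near 1 ppm rest on the pseudo-value.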

Other observations

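Further genes beyond 2-fold under all 9 settings were grouped after their values were seen. Some genes of cortical actin patches, the sites of endocytosis, were lower, adf1 was higher, and arc2, arc3, arc5 and fim1 lay between 0.67 (arc2) and 1.27 (arc5) under the rule. adf1, cofilin, had 702 ppm in the epe1KO pair and 168 ppm in the WT pair. wsp1, an actin assembly factor, had 48.9 ppm in the epe1KO pair and 209 ppm in the WT pair. pan1 had 211 ppm in the epe1KO pair and 612 ppm in the WT pair, shd1 had 131 ppm and 438 ppm, abp1 had 67.3 ppm and 214 ppm, and bbc1 had 143 ppm and 368 ppm, with the epe1KO pair first.

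Genes of the cell surface were found in both directions. psu1, a cell wall protein, had 1123 ppm in the epe1KO pair and 317 ppm in the WT pair. The phospholipases plb1 and plb2 had 1559 and 454 ppm in the epe1KO pair, against 6195 and 1199 ppm in the WT pair. knh4, next but one to leu1, had 1459 ppm in the epe1KO pair and 4115 ppm in the WT pair, and knh2 had 1196 ppm and 2643 ppm in that order. hem13, a heme synthesis enzyme, and sre1, the transcription factor of the low-oxygen response, had 185 and 74.2 ppm in the epe1KO pair, against 439 and 205 ppm in the WT pair.

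Among the higher genes, nrf1, a subunit of the vacuolar polyphosphate polymerase complex, had 453 ppm in the epe1KO pair and 67.4 ppm in the WT pair. Outside the ribosome assembly list, the assembly factors enp2, has1 and sda1 had 104, 149 and 83.7 ppm in the epe1KO pair, against 30.6, 47.1 and 23.0 ppm in the WT pair. ubi4, polyubiquitin, had 215 ppm in the epe1KO pair and 39.0 ppm in the WT pair. gcv1, of the glycine cleavage system, had 536 ppm in the epe1KO pair and 110 ppm in the WT pair. No test was possible for any of these sets.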
